A study of Mus musculus with 5 samples.

Results

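The Zscan4, Tcstv, Tdpoz and Zfp352 genes, which mouse embryos express for a short time around the 2-cell stage, were described in 5 mouse embryonic stem cell (ESC) lines. The members were chosen by name: the probes called Zscan4, Tcstv or Tdpoz, Zfp352 or Gm397, or described as Zscan4 or as 2-cell-stage transcripts. The rule found 12 of the 41174 probes on the array, for 5 genes. Gm397 is an older name of Zscan4c and had 2 probes, Tcstv1 had 3, Tcstv3 had 2, Tdpoz1 had 3 and Zfp352 had 2. Of these 12 probes, 10 passed the filter on dim probes, which asked for a signal called Present on at least 1 of 5 arrays. The other 2, both for Tdpoz1, were not well above background in any line.

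The study asked what the loss of ECAT11 (L1td1), an ESC-associated gene with a fragment of an L1 retrotransposon ORF-1, changes in ESCs. Both wild-type lines were RF8, the 129sv parental line, labelled male, and #620-2, labelled female and of C57BL6/129sv origin. The 3 ECAT11EGFP/EGFP lines, all of C57BL6/129sv origin, were #620-6, labelled female, and #757-1 and #757-2, both labelled male. In them both copies of the ECAT11 coding region were replaced by an EGFP-IRES-Puro cassette. All 5 lines were grown on gelatin with LIF and serum, without other treatment, and total RNA of each was hybridized to 1 one-colour Agilent array. Lines other than RF8 were established from single blastocysts on feeder cells, so each line is 1 clone and stands for 1 embryo. The lines are the replicates, and no line was measured more than once.

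In the mouse embryo the 2-cell stage is the time of the major wave of genome activation. Zscan4 proteins hold a SCAN domain and zinc fingers and are known for telomere lengthening and genome stability in ESCs, and the near-identical Zscan4 genes lie together on chromosome 7. In ESC cultures a small and changing minority of cells turns on Zscan4, and some of these also turn on other 2-cell genes. Tcstv1 and Tcstv3 encode short proteins named for their transcripts at the 2-cell stage, and Tcstv1 has also been tied to telomere length. Tdpoz1 belongs to a family of TRAF and BTB/POZ domain genes expressed in early embryos, and Zfp352 is a zinc finger gene that carries no introns in its coding part. In bulk RNA, fewer Zscan4-positive cells and less Zscan4 RNA per positive cell cannot be told apart.

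The probe sequences are shown because Zscan4 and Tcstv genes have close copies, so that a probe may read more than 1 gene. The first Zscan4c probe, A_52_P302671, lies at chr7:9713271-9713330 and the second, A_52_P363843, at chr7:9711998-9712057, both on the plus strand of build mm7. The Zfp352 probe A_51_P136390 lies at chr4:89617872-89617931 on the plus strand and the Tdpoz1 probe A_51_P506835 at chr3:93771305-93771364 on the minus strand. The Tcstv probes lie on unplaced sequence of that build (chrUn_random), the brightest Tcstv1 probe at positions 918057 to 918116 and the brightest Tcstv3 probe at positions 304775 to 304834, both on the minus strand. Exons and untranslated regions were not annotated in the sources used here. The second Zscan4c probe is given whole, and the others by their first 30 of 60 bases.
Zscan4c A_52_P363843: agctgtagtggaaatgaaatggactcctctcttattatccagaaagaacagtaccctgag
Zscan4c A_52_P302671: tcttgacagaagcctggcattccctctgac
Tcstv1 A_51_P481777: agagtcagaggaagccaaaagtgtccccag
Tcstv3 A_52_P165856: cagatactgaagaacatgcactgcccaatg
Tdpoz1 A_51_P506835: ccagtagtagaaaatcattgtcctttttct
Zfp352 A_51_P136390: accactgcaacctgactgtccacaaacaat

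Among the other 41162 probes, 0 shared a run of 20 or more bases with a member probe. Within the Tcstv group the probes were less separate. By position, the end of the Tcstv3 probe A_52_P165856 overlapped the start of the Tcstv1 probe A_52_P66425 over 25 bases with 1 mismatch, T14A, which has the Tcstv3 base first and is counted from the start of the overlap. The mismatch is in capitals.
Tcstv3 A_52_P165856, end: gtcttgccagcccTgagtacaaggt
Tcstv1 A_52_P66425, start: gtcttgccagcccAgagtacaaggt

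The Tcstv1 probes A_52_P66425 and A_51_P481768 shared 40 bases. In the array's annotation, the brightest Tcstv1 probe and the brightest Tcstv3 probe each list the transcripts of both genes, so their signals cannot be assigned to one of the genes. The names Tcstv1 and Tcstv3 below are those the array gives its probes. The Zscan4c probes carry the same uncertainty towards the other Zscan4 genes.

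RefSeq windows upstream of the start were given for Zscan4b, Zscan4c, Zscan4d, Zscan4f, Tdpoz1 and Zfp352 (build GRCm38.p6). They are shown because probes of Zscan4c and Zfp352 both peaked in #620-6. The 11-letter motif TGATNNAATCA, which resembles the paired sites of double-homeodomain factors such as Dux, was found on either strand in all 4 Zscan4 windows of 250 bases, against 0.177% of 32841 windows of the same length. TATAAA was found in all 4 as well, against 12.4% of all windows, and CCAAT in all 4, against 33.9%. Each pair of the 4 Zscan4 windows shared a run of 50 to 127 bases, so they are not 4 independent observations. None of the 3 motifs was found in the windows of Tdpoz1 and Zfp352. The Zscan4c window is chr7:11005495-11005744 on the plus strand, and the capitals mark TGATNNAATCA and TATAAA, which begin 114 and 54 bases before the start. The Zfp352 window is chr4:90218570-90218819 on the plus strand, and the capitals mark the 10-base word GACAACACAC, the most frequent one of the window, which occurs 9 times.
Zscan4c upstream: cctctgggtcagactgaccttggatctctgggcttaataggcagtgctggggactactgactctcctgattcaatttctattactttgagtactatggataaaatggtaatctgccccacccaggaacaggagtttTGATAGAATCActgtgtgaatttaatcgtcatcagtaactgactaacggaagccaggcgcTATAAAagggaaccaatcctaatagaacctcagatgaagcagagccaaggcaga
Zfp352 upstream: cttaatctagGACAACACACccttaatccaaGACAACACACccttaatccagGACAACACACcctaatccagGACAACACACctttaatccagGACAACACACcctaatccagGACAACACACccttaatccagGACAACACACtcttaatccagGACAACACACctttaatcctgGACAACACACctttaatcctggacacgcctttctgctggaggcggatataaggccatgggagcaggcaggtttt

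The longest run shared by the Zscan4c and Zfp352 windows was 7 bases, whereas the Zscan4c and Zscan4f windows shared a run of 127 bases. A motif match is a description of these letters, and no binding was measured.

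Signals are given as log2 relative to the 75th percentile of the same array, so that 0 is the level of that percentile and 1 unit is a 2-fold change. The arrays lay on 2 slides, RF8, #620-2 and #620-6 on slide 1 and #757-1 and #757-2 on slide 2. Slide 1 had 26371 to 27144 probes well above background and slide 2 had 21250 to 22061, and the lowest signal well above background was -6.22 to -5.90 on slide 1 and -4.49 to -4.22 on slide 2. A dim probe could therefore be measured on slide 1 and not on slide 2. Its recorded value was also higher on slide 2, as the values of Tdpoz1 show. No spot was saturated. No probe is named ECAT11, and the targeted gene was not used as a check of the labels.

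Zscan4c was measured well above background in all 5 lines. The signal of A_52_P302671 stood at -0.25 in RF8, 0.68 in #620-2, 1.98 in #620-6, -1.35 in #757-1 and -0.82 in #757-2. #620-6 had the highest value and #757-1 the lowest, 10.01-fold apart, and both are ECAT11EGFP/EGFP lines. The second probe, A_52_P363843, gave -2.51, -1.63, 0.25, -3.94 and -3.16 in the same order of lines. Its order was the same and its span was wider, 18.2-fold. Both wild-type lines lay between #620-6 and the #757 lines with either probe. The highest lines, #620-6 and #620-2, were also the only lines labelled female, and this label cannot be told apart from the line number 620.

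The probes named Tcstv1 ranked the lines similarly. The signal of A_51_P481777 stood at -1.41 in RF8, -1.44 in #620-2, 0.69 in #620-6, -3.20 in #757-1 and -2.31 in #757-2. #620-6 was 4.39-fold above #620-2 and 14.8-fold above #757-1. The wild-type lines were nearly equal here, whereas with A_52_P66425 they were -1.82 in RF8 and -1.36 in #620-2. The third Tcstv1 probe, A_51_P481768, was well above background on slide 1 alone, and #620-6 exceeded #757-1 by at least 4.40-fold and #757-2 by at least 3.67-fold. These bounds use, for each array on which a probe was not well above background, the higher of its own signal and the lowest signal well above background.

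The brightest probe named Tcstv3, A_52_P165856, had the smallest span of the members measured in every line. Its signal stood at -2.12 in RF8, -0.91 in #620-2, 0.03 in #620-6, -2.59 in #757-1 and -1.85 in #757-2, a span of 6.18-fold. #757-2 was here slightly above RF8. In the other members measured in every line, both wild-type lines lay between #620-6 and the #757 lines. Their own order was reversed with A_51_P481777, where RF8 was -1.41 and #620-2 was -1.44. The other Tcstv3 probe, A_51_P143200, was well above background in all lines but #757-1, and #620-6 was 3.62-fold above #620-2 and at least 8.32-fold above #757-1.

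Zfp352 and Tdpoz1 were dim. The signal of the Zfp352 probe A_51_P136390 stood at -5.07 in RF8, -5.08 in #620-2 and -2.82 in #620-6, and the values of -6.67 in #757-1 and -5.52 in #757-2 were not well above background. #620-6 was 4.76-fold above RF8 and 4.79-fold above #620-2, and at least 3.18-fold above #757-1 and 2.65-fold above #757-2. Both wild-type lines thus had the same value, and #620-6 stood apart from them. The other Zfp352 probe, A_52_P106585, was well above background in #620-6 alone (-5.24), at least 1.59-fold above #620-2 and 1.69-fold above RF8. The Tdpoz1 probe A_51_P506835 was also well above background in #620-6 alone, at -5.59. Its values not well above background were -8.09 in RF8, -8.02 in #620-2, -6.62 in #757-1 and -6.34 in #757-2. #620-6 was at least 1.25-fold above #620-2 and 1.32-fold above RF8, and no fold could be given against the #757 lines. Over the 5 lines, the Pearson r with the mean of both Zscan4c probes was 0.960 for A_51_P136390, 0.347 for A_52_P106585 and 0.253 for A_51_P506835, with signals not well above background among the points of each.

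**Figure D1:**
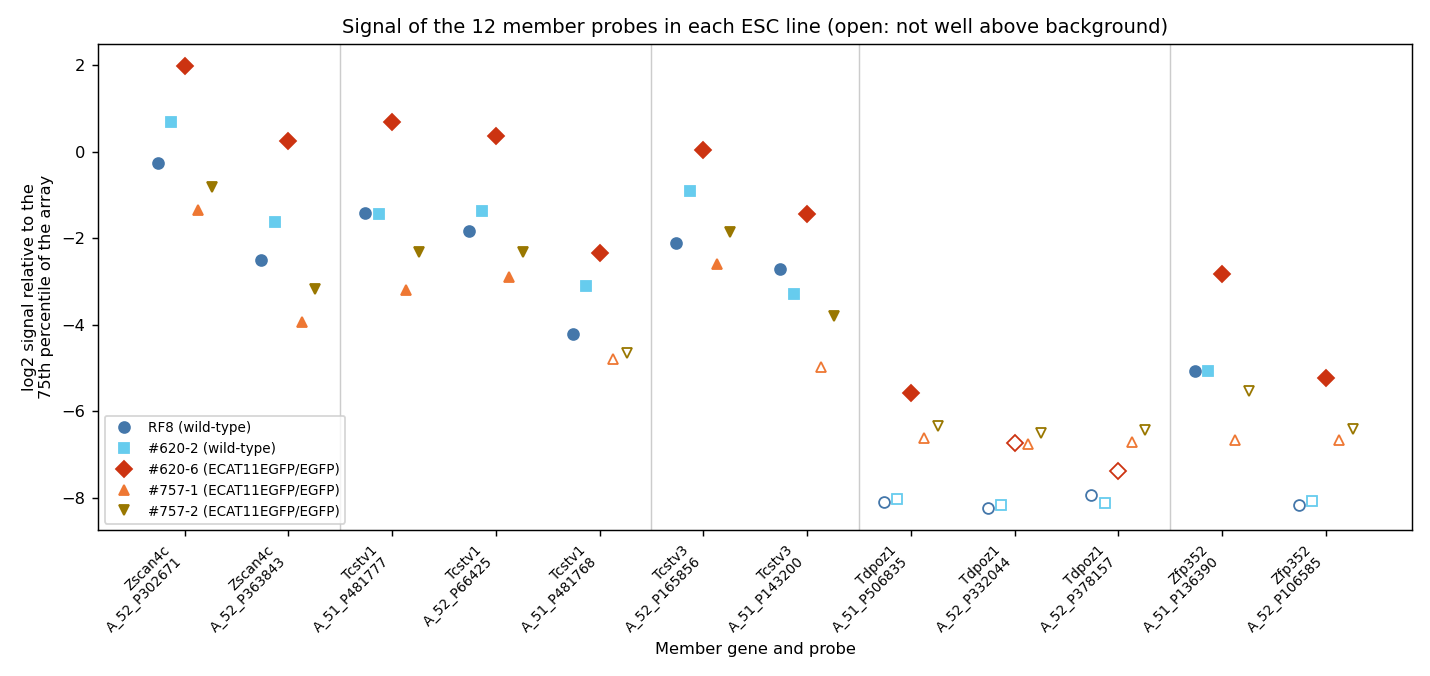
Each marker is the log2 signal, relative to the 75th percentile of the array, of 1 member probe in 1 ESC line, and an open marker is a signal that was not well above background. The filled diamond of #620-6 is the top marker of all 10 kept probes, and the #757 lines are at the bottom for all 5 Zscan4c and Tcstv probes measured in every line except that #757-2 is above RF8 for A_52_P165856.

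#620-6 had the highest signal in 10 of 10 kept member probes, whereas it was the highest line in 22.1% of the 28898 kept probes that had values on all arrays. Among the 5 members well above background on every array, the count was 5 of 5, against 20.3% of 20622 such probes. Within slide 1 alone, #620-6 was highest in 10 of 10, against 31.1% of kept probes. The same held with another background correction, with quantile normalization and with the deposited log2 values, in each case 10 of 10. The dimmest 2 of these 10, for Tdpoz1 and Zfp352, were kept through #620-6 alone and add nothing to the count.

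#620-6 and #620-2 carry the same number, share the strain origin and the sex label, and lay on the same slide, so they are the closest pair across the genotypes. #620-6 exceeded #620-2 by more than 2-fold in 4 of the 5 members measured in every line, and 3.53% of all such probes did so. The exception was the brightest Tcstv3 probe, at 1.92-fold. The median difference over the 10 kept members was 1.87 on the log2 scale, against -0.02 over all kept probes. It includes the Tdpoz1 and Zfp352 probes that were kept through #620-6 alone. Over the 8 members Present on at least 3 arrays, which leave these out, it was 1.79. Against the median of the other 4 lines, #620-6 was more than 2-fold higher in 5 of 5 members, against 3.91% of probes. The wild-type line #620-2 was so in 3 of 5, against 2.63% of probes.

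#757-1 was at the other end. It was the lowest line in 5 of 5 members measured in every line, against 14.2% of probes, and lay more than 2-fold below the median of the other 4 lines in 5 of 5, against 1.8%. #757-2 lay as far below in 2 of 5, against 0.926%. #757-2 was above #757-1 in 5 of 5, against 45.2% of probes, by 1.44-fold to 1.85-fold. The full order, #620-6 above both wild-type lines, these above #757-2 and #757-2 above #757-1, was found in 4 of 5 members and in 2.42% of probes. The 5 probes read 3 genes in 2 families with close copies, so they are not 5 independent observations. With 1 array per line, none of these line differences has a replicate check.

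**Figure D2:**
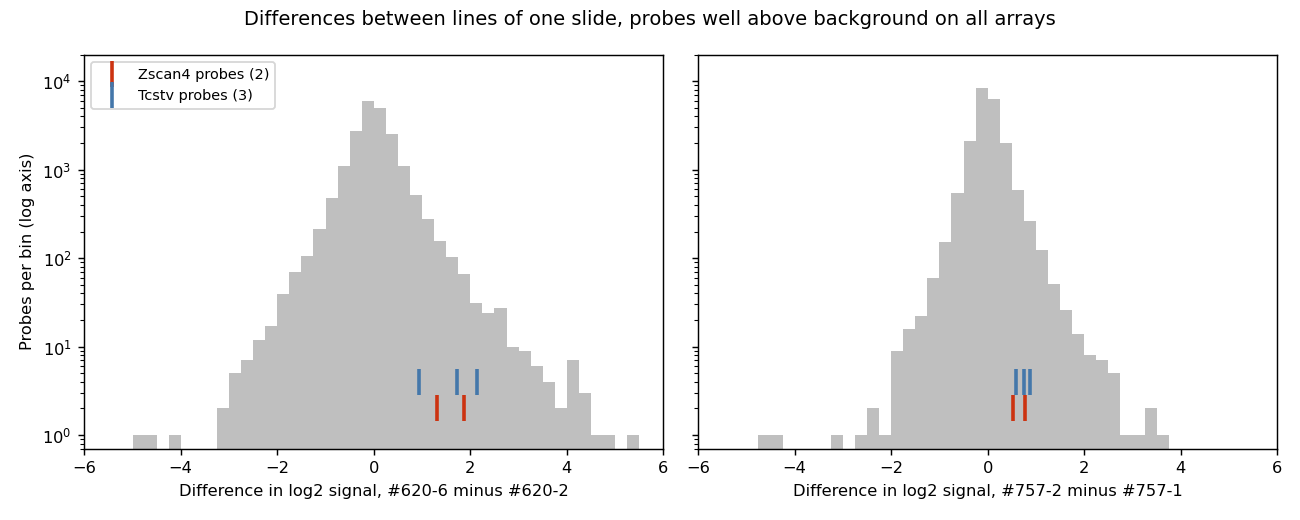
Grey bars count probes by their difference in log2 signal between the lines of 1 slide, on a log axis, for the 20622 probes measured well above background in every line, and ticks are the 5 Zscan4 and Tcstv members among them. The ticks lie between 0.94 and 2.14 for #620-6 minus #620-2 and between 0.53 and 0.89 for #757-2 minus #757-1.

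None of these genes passed the test between the genotypes. In a limma fit over 28972 kept probes, 0 of 10 members were called at an adjusted p under 0.05 and more than 2-fold, and 0.00345% of all probes, a single one, were called. At an unadjusted p under 0.05 there were 2 of 10 members, against 7.6% of probes. Both, the Tdpoz1 probe A_51_P506835 and the Zfp352 probe A_52_P106585, were well above background in only 1 line. Among the 8 members Present on at least 3 arrays, 0 had such a p. The Zscan4c probe A_52_P302671 averaged 0.21 ± 0.65 over the wild-type lines (SD, n = 2) and -0.06 ± 1.79 over the ECAT11EGFP/EGFP lines (SD, n = 3), a log2 fold change of -0.27 ± 1.11 (SE, limma adjusted p = 0.982). For the brightest Tcstv3 probe the change was 0.04 ± 0.90 (SE, limma adjusted p = 0.998), and for the Zfp352 probe A_51_P136390 it was 0.07 ± 1.19 (SE, limma adjusted p = 0.998). For the Zscan4c and Tcstv3 probes the ECAT11EGFP/EGFP group held both the highest and the lowest line. The Zfp352 value includes both #757 lines at signals not well above background. The median over the 10 members was -0.10, against -0.02 over all kept probes.

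The spread between lines of one genotype was wide for these genes. The pooled within-genotype SD was 1.21 to 1.85 on the log2 scale over the 5 members measured in every line, against a median of 0.23 over all such probes, and 1.43% of these probes had an SD of 1.21 or more. With an SE near 1 log2 unit, a 2-fold genotype difference of Zscan4c would not have been detectable here. With the sex label as a covariate, the change of A_52_P302671 was 0.083 ± 0.59 (SE).

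The genotype groups did not overlap in 2 of 10 members, against 23.5% of kept probes. These were the Tdpoz1 probe A_51_P506835, at 1.87 ± 0.35 (SE, limma adjusted p = 0.393), and the Zfp352 probe A_52_P106585, at 2.03 ± 0.48 (SE, limma adjusted p = 0.472). Both were not well above background in 4 of 5 lines, and such values were higher on slide 2, which held the #757 lines, than on slide 1. Their fitted changes therefore measure no size of a genotype difference, and no bound on a fold could be given.

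The slide moved the median of the members more than any other setting that was run. With the slide as a block, the genotype difference rests on slide 1, where #620-6 is set against RF8 and #620-2, since slide 2 held 1 genotype. All 10 members were then higher in ECAT11EGFP/EGFP, by 1.31 to 2.89 on the log2 scale, with limma adjusted p from 0.137 to 0.630. At an unadjusted p under 0.05 there were 7 of 10 members, against 8.94% of probes, and after adjustment 0 of 10, against 0% of probes. The 7 include the Tdpoz1 probe and the Zfp352 probe A_52_P106585, which passed the filter through #620-6 alone and so had to be high in this contrast. Of the other 8 members, 5 had such a p. Over these 8 the changes were 1.31 to 2.31, with limma adjusted p from 0.357 to 0.630. The brightest Zscan4c probe went from -0.27 to 1.77 ± 0.52 (SE, limma adjusted p = 0.504). One line, #620-6, decides this value, and slide 2 and the #757 lines cannot be told apart.

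**Figure D3:**
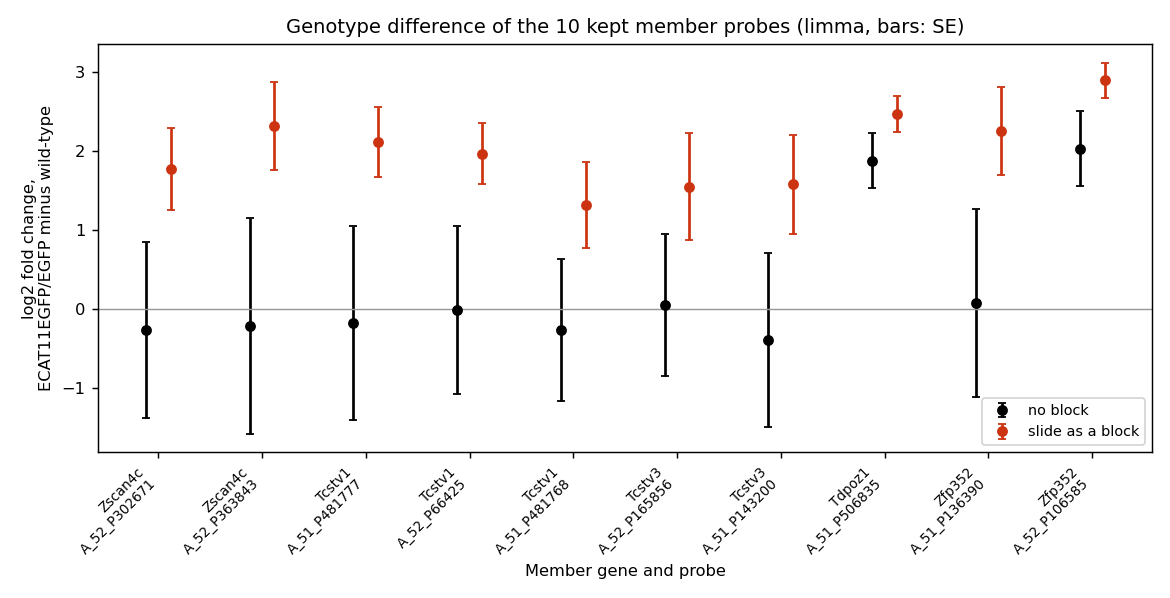
Points are the log2 fold change of ECAT11EGFP/EGFP over wild-type ESCs for the 10 kept member probes, with the SE as bars, from limma without a block and with the slide as a block. Without the block 8 of 10 points lie between -0.40 and 0.07, and with it all 10 lie between 1.31 and 2.89.

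The genes most like Zscan4 over the 5 lines were listed by Pearson r with the mean of both Zscan4c probes, among 1016 other probes well above background on every array with a range of at least 2 log2 units. With 5 points that share arrays, slides and scaling, such an r is a description, and 2.66% of these probes reached 0.95. Members themselves had r from 0.967 to 0.992 for the Tcstv probes measured in every line. The highest r among other genes, 0.997, was that of Usp17la (Dub1 in the files), a deubiquitinating enzyme gene of a multicopy family. Its signal stood at -1.75 in RF8, -0.95 in #620-2, 0.25 in #620-6, -2.88 in #757-1 and -2.48 in #757-2, the order of the Zscan4c lines.

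Next were Hus1b, a paralog of the checkpoint clamp gene Hus1 (r = 0.992), Tmsb15a, a thymosin beta gene (0.992), Gm428 (0.991), BC051019 (0.991), LOC544881 (0.991) and Gm5662, a gene similar to the translation initiation factor Eif1a (0.990). Mageb4, a melanoma antigen family gene (0.988), Nppb, which encodes a natriuretic peptide (0.985), and Morc4 (0.982) completed the 10. Gm428 spanned the widest range of the 10, from -2.75 in #757-1 to 2.02 in #620-6. Gm5662 was read by another probe as well, which gave 2.72, 2.77, 3.51, 2.93 and 2.96 in the same order of lines, so its probes did not show the same span.

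**Figure D4:**
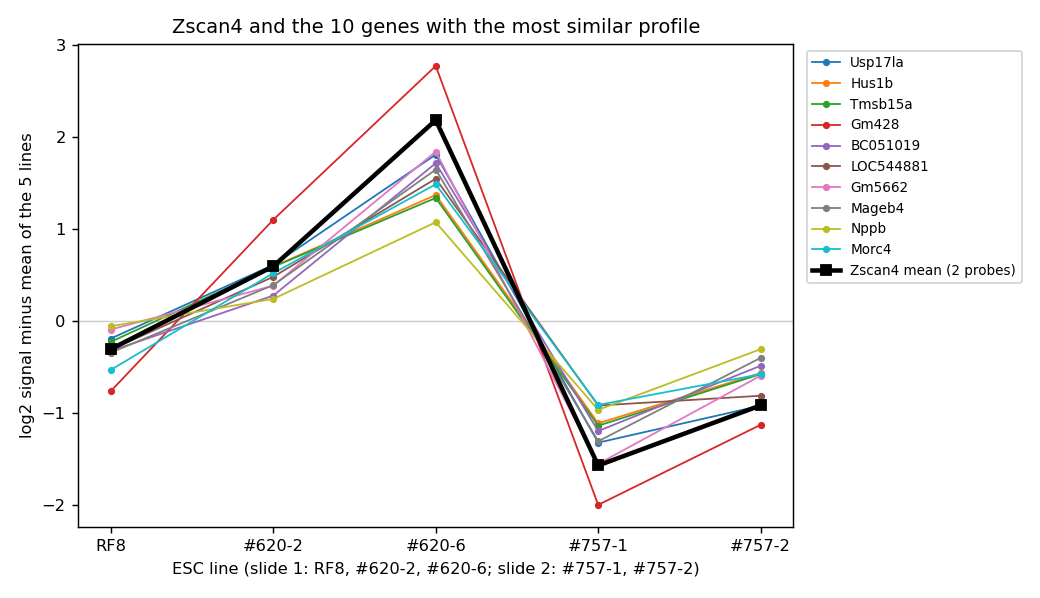
Lines join the log2 signal of each gene in the 5 ESC lines after its mean over the lines was subtracted, for the mean of both Zscan4c probes (black) and the 10 genes with the highest Pearson r to it. All 11 profiles peak in #620-6 and have their lowest point in #757-1.

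Genes known to act on the 2-cell state were then described from lists. Of 14 names on a list of activators, 10 had a probe and 8 were kept. No probe was found under Dux, Duxf3 or AW822073, so Dux was not measured. Of the 12 kept probes of this list, 0 were called between the genotypes. Of the 10 measured in every line, 0 were more than 2-fold higher and 0 more than 2-fold lower in #620-6 than in #620-2. Dppa2 and Dppa4 act upstream of Dux. Dppa2 was 2.57, 3.02, 3.40, 2.66 and 2.64 in RF8, #620-2, #620-6, #757-1 and #757-2. It was highest in #620-6 and next in #620-2, as Zscan4c was, over a narrower span. Dppa4 was 3.44, 3.52, 3.25, 3.65 and 3.32, highest in #757-1 and lowest in #620-6. Of the genes on this list, Obox6 (1.66-fold lower), Zfp281 (1.34-fold lower) and Gata2 (1.30-fold higher) differed most between #620-6 and #620-2. Obox6 was dim, at -5.44 in #620-2 and -6.17 in #620-6, and not well above background in RF8 and the #757 lines. Tbx3, a T-box factor, was 4.45 in #620-2 and 4.43 in #620-6, so it did not separate this pair. Its signal was lower elsewhere: 2.94 (#757-2), 2.27 (#757-1) and, lowest of all, 1.18 (RF8). Tbx3 was thus highest in the pair that also had the highest Zscan4c signals, and its part in them was not tested.

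All 32 repressors were kept, with 60 probes and 0 called. Of the 57 measured in every line, 3 were more than 2-fold lower in #620-6 than in #620-2 and 0 were higher, against 2.31% and 3.53% of all such probes. Trim28, the co-repressor that recruits Setdb1, was 5.54, 5.74, 5.86, 5.96 and 5.91, and Kdm1a, a histone demethylase, was 4.59, 4.79, 4.44, 4.74 and 4.74. Neither followed the Zscan4 order. Zfp42 (Rex1), an ESC marker gene, stood at 7.003 in RF8, 6.80 in #620-2, 4.01 in #620-6, 6.56 in #757-1 and 3.87 in #757-2. It was 6.91-fold lower in #620-6 than in #620-2 and equally low in #757-2, a line at the low end for Zscan4. Suv39h1, a histone methyltransferase gene, was 2.08-fold lower in #620-6 and Atrx, which encodes a chromatin remodeller, was 1.62-fold higher.

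The list of other 2-cell genes held 51 names, some of them for the same gene, as Usp17la and Dub1 are. Of these names, 25 had a probe and 20 were kept, with 32 probes and 0 called. Of the 22 measured in every line, 6 were more than 2-fold higher in #620-6 than in #620-2 and 0 were lower, against 3.53% and 2.31% of all such probes. Pramel7, of the Prame-like family and expressed at the morula stage, was -4.06, -3.22, 1.28, -2.66 and -2.66, which is 22.6-fold higher in #620-6 than in #620-2. Pramel6 was well above background in #620-6 alone, at -1.95, at least 15.5-fold above #620-2. Calcoco2, an autophagy receptor gene, was 2.42, 2.36, 5.44, 4.17 and 4.59, which is 8.46-fold higher in #620-6. Pramel7 and Calcoco2 shared the peak in #620-6, but unlike Zscan4c they were not lowest in the #757 lines. Calcoco2 was 2.34 ± 0.41 higher in the ECAT11EGFP/EGFP lines (SE, limma adjusted p = 0.380). The Dub1a probe was 2.32-fold higher in #620-6 than in #620-2 and not well above background on slide 2.

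**Figure D5:**
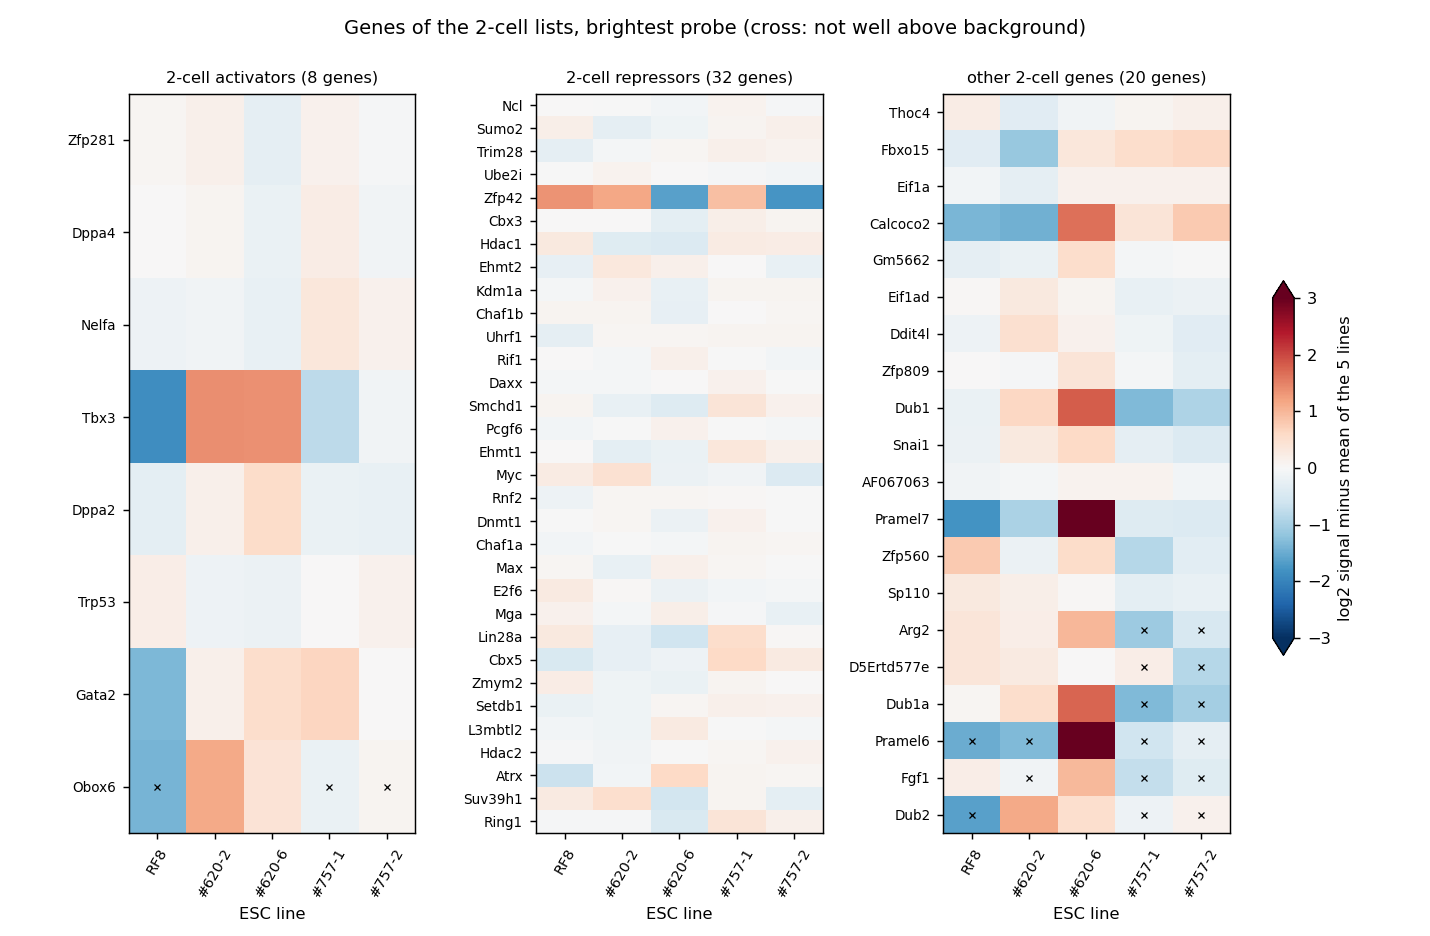
Colour gives the log2 signal of the brightest probe of each kept gene minus its mean over the 5 ESC lines, for 8 activators, 32 repressors and 20 other 2-cell genes, and a cross marks a signal not well above background. Among the repressors Zfp42 stands out as low in #620-6 and #757-2, and among the other 2-cell genes Pramel6, Pramel7, Calcoco2, Dub1 and Dub1a are highest in #620-6.

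Of 18 genes for telomeres and meiosis, which are linked to Zscan4 function, all were kept, with 28 probes and 0 called. Of the 22 measured in every line, 2 were more than 2-fold higher and 1 more than 2-fold lower in #620-6 than in #620-2, where all such probes gave 3.53% and 2.31%. With 22 probes these counts are near that background. Smc1b, a meiotic cohesin gene, stood at -0.91 in RF8, 0.04 in #620-2, 2.58 in #620-6, -1.81 in #757-1 and -0.63 in #757-2, which is 5.83-fold higher in #620-6 than in #620-2. Its highest and lowest lines were those of Zscan4c. Piwil2, of the piRNA pathway, was 2.15-fold higher in #620-6, whereas Sycp3, of the synaptonemal complex, was 2.02-fold lower.

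Some markers of the cells themselves were near level, and others varied between the lines. Of 12 ESC marker names, 10 had a probe, and all 10 genes were well above background in every line. Pou5f1 was 2.56, 3.05, 2.87, 2.72 and 2.55, Sox2 was 4.14, 4.55, 4.51, 4.67 and 4.55, and Nanog was 2.54, 3.96, 4.54, 3.44 and 3.71. Nanog and Tcl1 were highest in #620-6, as Zscan4c was, and the other ESC marker genes were not. Zfp42, given above, was 6.91-fold lower in #620-6 than in #620-2, Tdgf1 was 1.77-fold lower and Klf4 1.65-fold lower. Of 13 ESC marker probes measured in every line, 2 were more than 2-fold lower in #620-6 than in #620-2 and 0 were higher. All such probes gave 2.31% and 3.53%. The summed level of the ESC markers, relative to the 75th percentile on a linear scale, was 466 and 658 in the wild-type and 461 to 512 in the ECAT11EGFP/EGFP lines.

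Of 11 fibroblast markers, which could trace feeder cells, 11 were kept. Their summed level stood at 24.5 in RF8, 18.0 in #620-2, 17.5 in #620-6, 11.4 in #757-1 and 13.04 in #757-2, so it was lower in the #757 lines, as Zscan4 was, but not higher in #620-6. Lum was 4.37-fold and Pdgfrb 2.19-fold lower in #620-6 than in #620-2, and Postn was 1.37-fold higher. The brightest genes weigh most in this sum. Taken singly, Pdgfra, Dcn, Thy1, Col3a1, Twist1 and Lum were higher in both 620 lines than in every other line, as Zscan4c was. Pdgfra was -1.98 in #620-2 and -1.94 in #620-6 and not well above background elsewhere. Col1a1, Col1a2, Pdgfrb and Postn were highest in RF8, and Acta2 in #757-1. Of 8 endoderm markers, all kept, Afp was 3.23-fold higher, Gata6 1.93-fold lower and Sox7 1.64-fold higher in #620-6, and their summed level was 1.63 in #620-2 and 1.51 in #620-6 and 0.580 to 0.631 in RF8 and the #757 lines. The endoderm sum was thus higher in both 620 lines, which also had the highest Zscan4c signals.

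Several trophoblast and germ cell markers were also higher in #620-6 than in #620-2. Of 9 trophoblast marker probes measured in every line, 8 were more than 2-fold higher and 0 lower, against 3.53% and 2.31% of all such probes, among them Gata3 (10.004-fold) and Hand1 (4.53-fold), and Elf5 was at least 2.16-fold higher. Their summed level stood at 95.4 in RF8, 28.2 in #620-2, 61.2 in #620-6, 57.1 in #757-1 and 62.5 in #757-2, an order that Zscan4 did not share. Cdx2 was slightly lower in #620-6 (-4.93) than in #620-2 (-4.40) and not well above background on slide 2. Of 8 germ and oocyte marker probes measured in every line, 5 were more than 2-fold higher and 1 lower, against the same shares. Dazl, an RNA-binding protein of germ cells, was 6.29-fold higher and the oocyte factor Figla 4.15-fold lower in #620-6. Figla was -3.82 in RF8, -3.90 in #620-2 and -5.96 in #620-6, and not well above background in the #757 lines. Ddx4, Mael and Sycp3 had lower values in #620-6 than in #620-2 as well. Sycp3 was lower in the #757 lines too, at -0.78, -0.85, -1.87, -1.75 and -1.69 in the order of lines above (limma adjusted p = 0.346). The summed level of the germ and oocyte markers stood at 6.65 in RF8, 9.07 in #620-2, 11.1 in #620-6, 7.19 in #757-1 and 8.49 in #757-2. Bmp15, another oocyte gene, was well above background in #620-6 alone, through which it was kept. It was dim there, at -5.86, and at least 1.03-fold above #620-2. That level is under the lowest signal well above background on slide 2, -4.49 to -4.22. Of all these marker probes, 0 were called between the genotypes. Their part in the Zscan4 and Tcstv differences was not tested.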

How the data were processed

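The authors hybridized total RNA of 5 ESC lines to one-colour arrays, read the spots with Feature Extraction (version 9.5.3.1) and deposited each spot's background-corrected intensity, with no normalization between arrays. A second file deposited by the authors holds log2 values made in GeneSpring. Set against the log2 intensities, differences between arrays in that file had a slope of 1.00 over 20622 probes, and its column medians lay between -0.10 and 0.08. It was centred per probe, by a rule not given in the sources used here. Of 45018 spots per array, 1639 controls were left out, and spots marked non-uniform or population outlier (0.335% of the others) were treated as missing. Each spot's intensity was divided by the 75th percentile over that array's spots, log2 was taken and spots of a probe were averaged. The number of arrays limits the precision.

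The 28972 probes Present on at least 1 array were tested with limma 3.58.1 (R 4.3.3), with Benjamini-Hochberg adjustment, a threshold of 0.05 and 2-fold. With 2 against 3 arrays no exact permutation p is under 0.1. The code was tested on simulated data. Tables were read with pandas and with data.table (version 1.17.8), and figures drawn with matplotlib 3.10.9. Names came from the files, updated through RefSeq accessions and synonyms. Promoter windows are RefSeq's (GRCm38.p6), and probe positions are mm7.

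The members and lists were chosen with earlier results of these data known. Values were printed for the brightest probe of each member gene, for the 3 genes of each list that differed most between #620-6 and #620-2, for 8 further genes (Pou5f1, Sox2, Nanog, Zfp42, Dppa2, Dppa4, Trim28, Kdm1a) and for the 10 genes most like Zscan4. Tbx3, Dub1a, Cdx2, Ddx4, Mael, Tcl1 and the fibroblast markers other than Lum, Pdgfrb and Postn were named after their values were seen. So were the further probes of Zscan4c, Tcstv1, Tcstv3, Zfp352 and Gm5662. The alternatives were quantile normalization, normexp (offset 50), the authors' own log2 values, Present on at least 3 arrays, no filter, marked spots kept, the sex label as a covariate, the slide as a block, the methods' t-test and fits that each lacked 1 line. No probe is named ECAT11, and it is not analysed here.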

Additional observations from a re-analysis of the deposited data

How the results depend on the processing

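Of the 10 kept members, 0 were called under every alternative run. The single call over all probes became 0 with the slide as a block, no filter, normexp, the methods' t-test, quantile normalization and the sex covariate, and without any 1 line (0 to 0), and 2 with the stricter filter. Without adjustment, 967 probes passed 0.05 and 2-fold as reported, and 258 to 1828 did so under the alternatives. The median log2 fold change of the members moved from -0.10 to 2.04 with the slide as a block, lay between -0.20 and 0.25 under the other settings with all 5 lines, and ranged from -1.04 (without #620-6) to 0.61 (without #757-1) when 1 line was left out. The brightest Zscan4 probe reversed from -0.27 to 1.77 with the slide block and to 0.083 with the sex covariate, and ranged from -1.29 to 0.37 without 1 line. The brightest Tcstv probe, 0.04 as reported, became 1.55 with the slide block and ranged from -0.71 to 0.65 without 1 line. The Zfp352 probe A_51_P136390, 0.07 as reported, reversed to -0.18 with quantile normalization, became 2.25 with the slide block and ranged from -1.02 to 0.90 without 1 line. The Tdpoz1 probe, which the stricter filter removed, was 1.87 as reported, 0.25 with normexp, 0.69 with quantile normalization, 2.47 with the slide block and 1.58 to 2.09 without 1 line, all fitted on signals not well above background in 4 lines. Each of these ranges includes the fit without #620-6. What caused the other changes was not tested. The median difference between #620-6 and #620-2 stayed positive, from 1.12 with normexp to 1.87. The count of members highest in #620-6, an alternative chosen after seeing the data, was 10 of 10 with normexp, quantile normalization, the deposited values and marked spots kept, 8 of 8 with the stricter filter and 10 of 12 with no filter. No paired analysis was possible because the labels give no replicate numbers and the genotypes share only the 1 line number 620. Signal over background limits Tdpoz1 and Zfp352, most of all on slide 2, and with 1 array per line the spread within a line is unknown.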
